A study of Mus musculus with 30 samples.

Results

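The myogenic regulatory factors are the 4 related transcription factors encoded by Myod1, Myog, Myf5 and Myf6. Every probe set of either chip that is annotated to one of these genes and to no other was taken, whatever its values, which gave 5 probe sets (4 on the A chip, 1 for each gene, and 1 on the B chip, for Myod1) of the 35067 probe sets with a single gene, and 4 of 18194 genes. Total RNA of cultured mouse cells, which the labels tie to leg muscle, was hybridised at 0, 4, 12, 24 and 48 h to Affymetrix A and B chips, 3 arrays per hour and chip, 30 arrays in all. The labels give neither a strain, an age or a treatment, nor the event at 0 h, nor whether the replicates are independent cultures. The p-values therefore reflect array-to-array spread, part or all of which may be technical. The comparisons ask how the transcript levels of the 4 genes differed between the hours.

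In muscle, Myod1 and Myf5 act early and commit cells to the myogenic fate, Myog is needed for myoblasts to differentiate into fibres, and Myf6 (MRF4) is known mainly from later differentiation and from mature fibres. All 4 proteins share a basic helix-loop-helix domain, pair with the widely expressed E proteins and bind the E box, CANNTG, in the control regions of muscle genes. Id proteins take up E proteins and block this pairing, and MEF2 proteins act as partners at many of the same genes, through AT-rich sites of the form CTANNNNTA.

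The promoters of Myog and Myf5 are shown because E boxes and MEF2 sites are where these factors and their partners act. No promoter sequence of Myod1 or Myf6 was at hand. A link between the sites and the levels was not tested. The sequences are the bases before the annotated start in the RefSeq promoter table of build GRCm38.p6, written 5′ to 3′ on the gene's own strand, and capitals mark every CANNTG and CTANNNNTA on either strand.
Myog, chr1:134289754-134290003, plus strand: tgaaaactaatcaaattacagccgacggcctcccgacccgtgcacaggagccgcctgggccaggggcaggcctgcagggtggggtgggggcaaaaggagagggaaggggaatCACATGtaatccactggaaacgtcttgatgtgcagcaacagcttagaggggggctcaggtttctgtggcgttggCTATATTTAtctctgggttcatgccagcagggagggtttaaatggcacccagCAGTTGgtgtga
Myf5, chr10:107486135-107486384, minus strand: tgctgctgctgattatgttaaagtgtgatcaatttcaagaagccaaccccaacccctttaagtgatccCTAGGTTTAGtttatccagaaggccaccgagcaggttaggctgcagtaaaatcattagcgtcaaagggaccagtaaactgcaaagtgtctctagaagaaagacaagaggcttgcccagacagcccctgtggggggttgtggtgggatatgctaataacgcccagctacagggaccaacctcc
In the Myog window the E box letters began 138 and 12 bases before the start, as CACATG and CAGTTG, and CTATATTTA began 64 bases before it. In the Myf5 window no CANNTG was found, and CTAGGTTTA began 182 bases before the start and overlapped a match on the opposite strand that began 181 bases before it. Of 32841 promoter windows of the same 250 bases, 66.2% held CANNTG and 19% held CTANNNNTA on either strand, so these letters are common, and a match is not a binding site. Myf5 and Myf6 are neighbours on chromosome 10, with 0 genes listed between them.

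All arrays of a chip had been scaled to a common trimmed mean (500.1 to 500.2 on A and 500.1 on B), with medians between 154.7 and 183.4 on A and between 220.0 and 256.2 on B. The 6 skeletal muscle markers (Des, Acta1, Myh3, Ckm, Tnnt3 and Chrna1) were all among the tested probe sets and their summed intensity was 30729.7 to 54635.2 over the 15 samples. Summed over their own probe sets, which are not on the same scale as those of other lists, 6 fibroblast markers had 2245.8 to 4516.1 (1 of 6 tested), 5 macrophage and leukocyte markers 401.9 to 771.1 (3 tested) and 5 endothelial markers 268.7 to 521.7 (2 tested). The 2 Schwann cell markers had 133.3 to 260.7 (1 tested) and the 2 adipocyte markers 9.4 to 53.5 (0 tested). No marker list summed to 0 on any array, but no detection calls were at hand. A sum above 0 therefore does not show that a cell type was present. Replicate 3 stood apart from the other numbers: with hour as a further factor, limma called 33.9% of the 13575 tested A probe sets between them (adjusted p under 0.05). All 5 measured markers of proliferating cells were higher in replicate 3 (median log2 difference 1.17), with sums of 6342.1 to 8476.8 in replicate 3 and 1889.4 to 4574.2 in replicates 1 and 2. Sums of the 5 pericyte and smooth muscle markers were 722.4 to 1060.4 in replicate 3 and 1238.7 to 4004.1 in replicates 1 and 2, but the 3 tested went both ways, with log2 differences of -3.96 for Rgs5, -1.38 for Notch3 and 0.78 for Cspg4. Results are therefore also given from a limma fit with the replicate number as a block (the blocked fit) and from replicates 1 and 2 alone.

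Across the 48 h, Myf5 fell, Myod1 was lowest at the last hour, Myog peaked in mean at 12 h and Myf6 had its highest mean at 48 h. In the fit without the block 1 of the 4 genes, Myf5, differed over the 5 hours (moderated F test, adjusted p = 0.030), beside 1.97% of all tested A probe sets. That call was lost in 8 of 15 fits with an array left out (adjusted p up to 0.090) and with no filter (adjusted p = 0.052). In the blocked fit all 4 genes differed, beside 12.1%, with adjusted p = 0.0020 for Myod1, 0.0055 for Myf5, 0.031 for Myog and 0.031 for Myf6 (limma). In replicates 1 and 2 alone 2 did, Myf5 (adjusted p = 0.0018) and Myod1 (adjusted p = 0.0045), beside 17.5%. In bulk RNA, fewer cells of a type and less RNA per cell cannot be told apart.

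**Figure D1:**
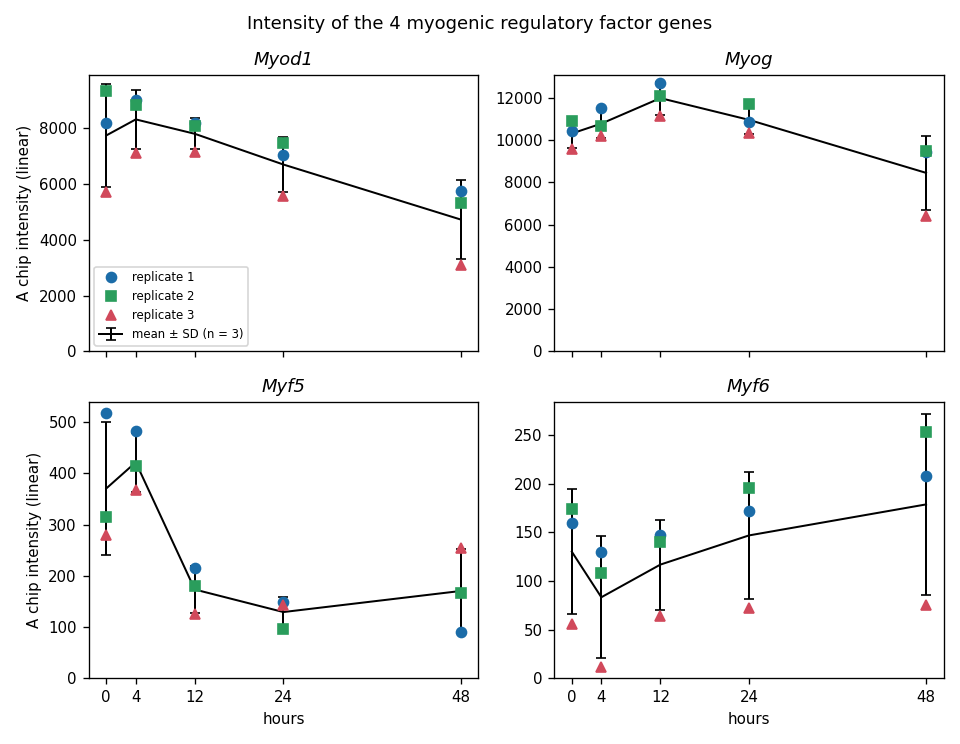
Linear A chip intensity of each gene (vertical axes, from 0, a separate scale for each panel) against hours, with a symbol for each replicate and the mean ± SD of 3 arrays as a black line. Myod1 ended at a mean of 4719.9 at 48 h, Myf5 was at most 215.0 on every array at 12 and 24 h, and the replicate 3 array was the lowest of its hour at all 5 hours for Myod1, Myog and Myf6.

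Myf5, the earliest of the 4 in the embryo, was lower at 12, 24 and 48 h than at 0 h in mean, and the fall at 24 h was called with and without the block. Its intensity in replicates 1, 2 and 3 was 518.4, 314.0 and 278.9 at 0 h, 482.8, 413.6 and 368.2 at 4 h, and 215.0, 180.0 and 124.7 at 12 h. It was 148.0, 96.4 and 143.3 at 24 h and 89.6, 166.3 and 255.1 at 48 h. All arrays at 12, 24 and 48 h lay below all arrays at 0 h, whereas those at 4 h overlapped them. Here and below, the share of all probe sets whose arrays did not overlap was not counted, so such statements only describe the values. In order of the means, 4 h (421.5 ± 57.7, SD, n = 3) stood above 0 h (370.4 ± 129.3), 12 h (173.2 ± 45.5), 48 h (170.3 ± 82.8) and 24 h (129.2 ± 28.5), and neighbours in this order differed by less than the larger SD of the pair except 0 h and 12 h.

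At 24 h Myf5 stood at 34.9% of its 0 h mean, with every array below the lowest A array median of 154.7. The log2 difference against 0 h was -1.31 (SE 0.30, limma, adjusted p = 0.031), and 1 of the 4 genes was called in this comparison beside 2.67% of all tested A probe sets. The blocked fit gave the same difference with adjusted p = 0.0081 (1 of 4 genes, beside 12.3%), and replicates 1 and 2 alone gave -1.54 (adjusted p = 0.0029). The call without the block was lost when a single array was left out, with adjusted p = 0.13 and 0.0996 without the 0 h array of replicate 1 or 2 and 0.0991 and 0.17 without the 24 h array of replicate 1 or 2. It also missed the threshold with quantile normalization (adjusted p = 0.052), with no filter (0.057) and with only the hours compared (0.056). The blocked call was lost without the 0 h array of replicate 1 (adjusted p = 0.060) or the 24 h array of replicate 2 (adjusted p = 0.067).

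At 48 h Myf5 differed between the replicate numbers. Within replicates 1, 2 and 3 the log2 change against the same number's 0 h array was -1.17, -0.71 and -1.0 at 12 h, -1.63, -1.45 and -0.84 at 24 h, and -2.21, -0.81 and -0.12 at 48 h. The intensity at 48 h was thus lower in 3 of 3 numbers but spread widely, and over all arrays the log2 difference of -1.05 (SE 0.30) was not called (adjusted p = 0.0987, limma). It was called in the blocked fit (adjusted p = 0.034), in replicates 1 and 2 alone (-1.51, adjusted p = 0.0039) and without the 48 h array of replicate 3 (-1.35, adjusted p = 0.023). In 4 of 15 fits with an array left out the blocked call was lost (adjusted p 0.074 to 0.17), and those arrays were replicates 1 and 2 at 0 and 48 h.

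At 12 h the log2 difference against 0 h of Myf5 was -0.96 (SE 0.30) and that against 4 h was -1.17 (SE 0.30), and in both the arrays did not overlap. Neither passed the test (adjusted p = 0.53 and 0.94, and 0.13 and 0.16 in the blocked fit). Between 12 and 24 h the difference was -0.35 (adjusted p = 0.93).

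Myod1, the factor that can turn fibroblasts into muscle when introduced into them, was lower at 48 h. Its A chip intensity in replicates 1, 2 and 3 was 8182.0, 9300.3 and 5692.9 at 0 h, 8992.5, 8808.3 and 7097.8 at 4 h, and 8160.2, 8051.4 and 7140.6 at 12 h. It was 7015.2, 7470.3 and 5571.2 at 24 h and 5735.3, 5315.7 and 3108.8 at 48 h. Within each number the 48 h array was the lowest of the 5 hours, but the groups overlapped, since the 0 h array of replicate 3 lay below the 48 h array of replicate 1. The means ran 8299.5 ± 1044.8 at 4 h, 7784.1 ± 559.9 at 12 h, 7725.1 ± 1846.6 at 0 h, 6685.6 ± 991.5 at 24 h and 4719.9 ± 1411.0 at 48 h (SD, n = 3 each), and neighbours in that order differed by less than the larger SD of the pair except 24 h and 48 h.

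The 48 h mean of Myod1 was 61.1% of that at 0 h, with within-number log2 changes of -0.51, -0.80 and -0.87 in replicates 1, 2 and 3. Without the block the log2 difference of -0.73 (SE 0.22) was not called (adjusted p = 0.11), and 0 of the 4 genes were, beside 2.15% of tested A probe sets. An unadjusted p under 0.05 was reached by 3 of 4 genes, beside 14.9% of tested A probe sets. Without the 0 h array of replicate 3 the log2 difference of Myod1 was -0.93 and was called (adjusted p = 0.041). That fit left out the lowest 0 h array and kept the lowest 48 h array, also of replicate 3, so its groups were not balanced. In the blocked fit Myod1 fell by 0.73 on the log2 scale (SE 0.13, adjusted p = 0.0021), which held without each of the 15 arrays in turn (adjusted p 0.0018 to 0.023), and 2 of 4 genes were called beside 9.01%. In replicates 1 and 2 alone the difference was -0.66 (adjusted p = 0.0021). The step from 24 to 48 h was -0.54, not called without the block (adjusted p = 0.57, 0 of 4 genes, beside 0.0147%) and called with it (adjusted p = 0.039, 1 of 4 genes, beside 2.16%). That blocked call was lost in 7 of 15 fits with an array left out and was not made in replicates 1 and 2 alone (-0.39, adjusted p = 0.075).

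The second Myod1 probe set, on the B chip, was dim, at 59.4 to 223.4 over 15 arrays, and lay below the filter on low values. Its identifier ends in x_at, the maker's mark for probes that may also bind other transcripts. With the filter removed its log2 difference at 48 h was 0.58 (SE 0.36, limma, adjusted p = 0.63), while that of the A chip probe set was -0.73, and no comparison with 0 h passed the test. The Myod1 results above rest on the A chip probe set alone.

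Myog, the gene that switches on as myoblasts leave the cell cycle and differentiate, was bright at every hour, 0 h included. Its intensity in replicates 1, 2 and 3 was 10435.5, 10929.7 and 9593.6 at 0 h, 11522.7, 10650.3 and 10185.6 at 4 h, and 12722.0, 12100.4 and 11160.1 at 12 h. It was 10863.0, 11700.1 and 10333.1 at 24 h and 9455.9, 9479.5 and 6428.9 at 48 h. All arrays at 12 h lay above and all at 48 h below those at 0 h, and the arrays at 48 h also lay below those at 24 h, with no share over all probe sets to set beside this. The order of the means was 12 h (11994.2 ± 786.4, SD, n = 3), 24 h (10965.4 ± 689.2), 4 h (10786.2 ± 678.8), 0 h (10319.6 ± 675.5) and 48 h (8454.8 ± 1754.5). In that order 12 h and 24 h, like 0 h and 48 h, differed by more than the larger SD of the pair, and the other neighbours did not.

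None of these differences in Myog passed the test. At 12 h the log2 difference against 0 h was 0.22 (SE 0.13, limma, adjusted p = 0.83, and 0.39 in the blocked fit), with 0.29, 0.15 and 0.22 in the 3 numbers. At 48 h it was -0.31 (SE 0.13, adjusted p = 0.28, and 0.090 in the blocked fit), with -0.14, -0.20 and -0.58 in replicates 1, 2 and 3. The step from 24 to 48 h was -0.39 (adjusted p = 0.50, and 0.074 in the blocked fit). The array of replicate 3 at 48 h was the lowest of the 15, and in replicates 1 and 2 alone the 48 h difference against 0 h was -0.17 (adjusted p = 0.36). The blocked F test that called Myog was lost in 8 of 15 fits with an array left out.

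Myf6 ran from 11.9 to 253.1, around the A array medians of 154.7 to 183.4, and its replicate 3 arrays lay below all its others. Its intensity in replicates 1, 2 and 3 was 160.0, 174.1 and 56.0 at 0 h, 129.3, 108.5 and 11.9 at 4 h, and 147.2, 139.7 and 63.5 at 12 h. It was 171.9, 195.8 and 72.6 at 24 h and 207.9, 253.1 and 74.9 at 48 h. In each number the 4 h array was the lowest and the 48 h array the highest of the 5 hours, while the hours overlapped throughout. The means were 178.6 ± 92.6 at 48 h, 146.8 ± 65.3 at 24 h, 130.03 ± 64.5 at 0 h, 116.8 ± 46.3 at 12 h and 83.2 ± 62.6 at 4 h (SD, n = 3 each), with no neighbours apart by more than their spread.

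At 48 h Myf6 had a log2 difference of 0.36 against 0 h (SE 0.54, limma, adjusted p = 0.82), higher in 3 of 3 numbers (0.33, 0.47 and 0.29), and the blocked fit did not call it (adjusted p = 0.31). At 4 h the difference was -0.62 (adjusted p = 1.00, and 0.36 in the blocked fit), with -0.26, -0.56 and -1.06 in replicates 1, 2 and 3. The 4 h array of replicate 3, at 11.9, lay below the pseudocount of 29 added before the log, so its log2 value depends on that pseudocount. The 4 h difference of Myf6 was -1.04 with a pseudocount of 1 and -0.32 with 4 times the one used. With replicate 3 left out at 4 h only it was -0.008, with replicate 3 left out at 0 h only it was -1.03, and none of these was called. The call of Myf6 by the blocked F test was lost in 7 of 15 fits with an array left out and with quantile normalization (adjusted p = 0.051). That call was not made in replicates 1 and 2 alone (adjusted p = 0.071).

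**Figure D2:**
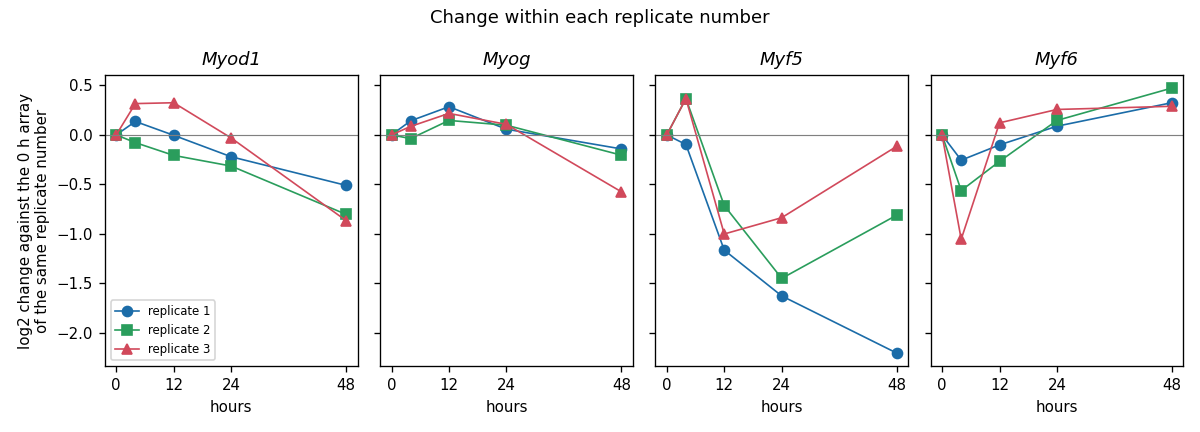
Log2 change of each gene (vertical axis, shared by the 4 panels) against the 0 h array of the same replicate number, plotted over hours. Myod1 ended at -0.51, -0.80 and -0.87 in replicates 1, 2 and 3, whereas the lines of Myf5 fanned out to -2.21, -0.81 and -0.12 at 48 h.

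The remaining comparisons called none of the 4 genes. In the 4 h against 0 h comparison 0 of 4 genes were called without the block and 0 with it, beside 0% of tested A probe sets in both (limma), and 671 of 13575 probe sets and 0 of the 4 genes had an unadjusted p under 0.05 without the block. In the 12 h against 0 h comparison 0 of 4 were called in either fit, beside 0% and 0.707%, with 890 probe sets and 1 of the 4 genes at an unadjusted p under 0.05. In the 12 h against 4 h comparison 0 of 4 were called in either fit, beside 0% and 0.00737%, with 646 probe sets and 1 gene. In the 24 h against 12 h comparison 0 of 4 were called in either fit, beside 0% and 0.243%, with 814 probe sets and 0 genes.

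Between the replicate numbers 3 of the 4 genes were called lower in replicate 3. The 33.9% of all tested A probe sets called there counts both directions. With 1 probe set per gene, 15.1% of 12446 tested genes were called lower. Myf6 ran from 11.9 to 74.9 in replicate 3 and from 108.5 to 253.1 in replicates 1 and 2, with no overlap (log2 difference -1.27, SE 0.13, limma, adjusted p = 1.83e-06). Other pseudocounts gave -1.77 (pseudocount 1) to -0.73 (4 times the one used), called in each. Myod1 was lower at each of the 5 hours, with a log2 difference of -0.46 over all hours (SE 0.081, adjusted p = 0.000284). It differed most at 48 h (-0.82) and 0 h (-0.61) and least at 12 h (-0.18).

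Myog differed by -0.22 (SE 0.069, adjusted p = 0.020), a call that was lost without the 48 h array of replicate 3 (-0.14, adjusted p = 0.096). Myf5 had no such difference over all hours (-0.04, adjusted p = 0.90). By hour it was -0.49, -0.26 and -0.56 at 0, 4 and 12 h and 0.21 and 0.90 at 24 and 48 h, so its sign turned within the course, a turn that was not tested. Sums of the proliferation markers, given above, were higher in replicate 3, and their part in these differences was not tested.

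**Figure D3:**
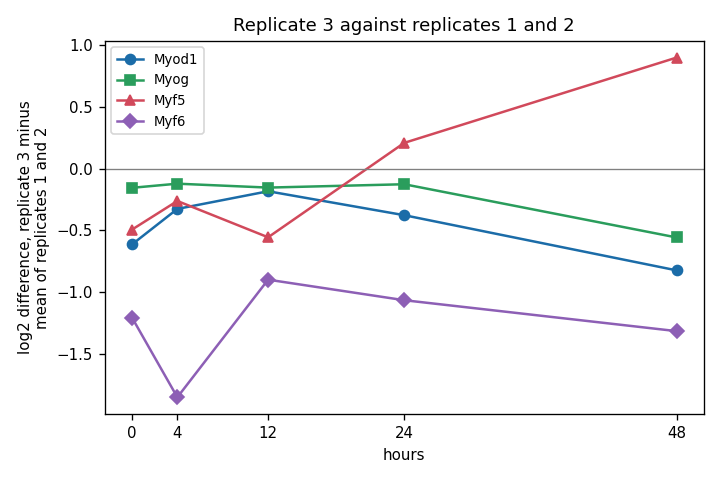
Log2 intensity of replicate 3 minus the mean of replicates 1 and 2 (vertical axis) at each hour, with 1 line per gene. Myod1, Myog and Myf6 stayed below 0 at all 5 hours, and Myf5 passed to 0.90 at 48 h.

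Among themselves, Myod1 and Myog moved most alike. Over the 15 A arrays the log2 values of this pair had r = 0.89, and r = 0.85 after each replicate number's mean was subtracted. Myod1 and Myf6 had r = 0.19 unsubtracted and -0.65 subtracted, and Myf5 and Myf6 had -0.29 and -0.59. Myog and Myf5, whose promoters are printed above, had r = -0.04 and -0.07. These values describe 15 arrays that share hours, numbers and scaling.

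The genes with the courses most like each member were taken by the subtracted r over the same 15 arrays. For Myod1 they were Mest (r = 0.96), Rnf187 (0.96), Igfbp2 (0.95), Capns1 (0.92) and Jun (0.92), of which Igfbp2 encodes a binding protein for insulin-like growth factors and Jun a subunit of AP-1. For Myog they were Parm1 (0.95), Dmpk (0.95), Alpk2 (0.92), Ncoa1 (0.92) and Ptgis (0.92), where Dmpk encodes the kinase altered in myotonic dystrophy and Ptgis prostacyclin synthase. For Myf5 they were Tmem128 (0.94), Kctd1 (0.93), Tmem165 (0.93), Pcdh7 (0.92) and Numa1 (0.92). For Myf6 they were Hibadh (0.92), Polr1e (0.86), Nacc1 (0.85), Parp6 (0.85) and Narf (0.85), and for Polr1e and Nacc1 the unsubtracted r was -0.47 and -0.28, so that likeness rests on the subtraction. At 48 h against 0 h the log2 differences of the 5 genes like Myod1 ran from -1.42 (Igfbp2) to -0.38 (Rnf187) and those of the 5 like Myog from -1.53 (Parm1) to -0.36 (Alpk2). Those of the 5 like Myf5 ran from -0.45 (Numa1) to -0.29 (Tmem128) and those of the 5 like Myf6 from 0.10 (Nacc1) to 0.36 (Polr1e). The genes were picked over arrays that include those at 0 and 48 h, so a shared direction follows largely from the choice. No background was set beside these r values.

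Genes that work with or on the factors were then described, each by 1 probe set, beside 12446 genes tested. All 3 E proteins, the DNA-binding partners, were tested, and 0 were called against 0 h at any hour in either fit (limma). Without the block 1 of 3 had an unadjusted p under 0.05 at 48 h, beside 14.9% of tested A probe sets. At 4, 12 and 24 h 0 did, beside 4.94%, 6.56% and 16.4%. Tcf12 had 2002.7, 2078.8 and 1818.2 at 24 h and 1404.6, 1724.7 and 1954.3 at 48 h, against 2774.5, 2177.3 and 1913.6 at 0 h (log2 difference -0.42 at 48 h, adjusted p = 0.24). It was called at 48 h in replicates 1 and 2 alone (-0.65, adjusted p = 0.025). Tcf3 and Tcf4 had log2 differences of -0.02 and 0.26 at 48 h (adjusted p = 0.98 and 0.70).

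Of 24 genes listed as repressors or inhibitors of the factors 22 were on the chips and 17 tested. At 24 h 0 were called higher and 2 lower, Id3 and Id1, beside 1.58% and 0.94% of all tested genes, and at 48 h 0 higher and 1 lower, Id3, beside 1.29% and 0.747%. The median log2 difference of the list was -0.18 at 24 h and -0.03 at 48 h, against -0.05 and -0.03 over all genes tested. Blocked, 2 were higher and 7 lower at 24 h, beside 4.94% and 5.58%, and 1 higher and 5 lower at 48 h, beside 3.79% and 4.45%.

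The Id genes, whose products take up E proteins, led the falls. Id3 had 1202.5, 1152.6 and 850.6 at 24 h, against 4094.0, 5299.9 and 3118.6 at 0 h (log2 difference -1.92, SE 0.23, adjusted p = 0.0020, limma). Id1 had 2305.4, 1939.9 and 1324.6 at 24 h, against 4609.5, 5918.2 and 3882.7 at 0 h (-1.37, adjusted p = 0.027). In both, every 24 h array lay below every 0 h array.

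Id2 had a log2 difference of -1.24 at 24 h, which was called in the blocked fit (adjusted p = 0.0023) and not without it (adjusted p = 0.073). Hdac1, a histone deacetylase, had -0.50 (adjusted p = 0.086, and 0.023 in the blocked fit). Against the direction of the Id genes, Bhlhe40, a bHLH repressor, rose in the blocked fit by log2 differences of 1.68 and 1.63 at 24 and 48 h (adjusted p = 0.0032 and 0.0048). Bhlhe40 was named after its values were seen.

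Of 11 factors that act upstream of the 4 genes 9 were on the chips and 7 tested, and 0 were called at 24 or 48 h without the block, with 3 and 1 at an unadjusted p under 0.05, beside 16.4% and 14.9% of all tested A probe sets. In the blocked fit 0 were higher and 2 lower at 24 h, Pax7 and Six4, beside 4.94% and 5.58% of all tested genes, and 0 higher and 1 lower at 48 h, Six4, beside 3.79% and 4.45%. Pax7, the satellite cell factor, had 196.7, 160.2 and 114.1 at 24 h, against 305.9, 388.7 and 225.0 at 0 h (log2 difference -0.85, adjusted p = 0.17, and 0.0041 in the blocked fit). Six4 had 546.2, 535.8 and 496.9 at 24 h, against 960.8, 781.0 and 647.4 at 0 h (log2 difference -0.56, adjusted p = 0.0992, blocked 0.0094). In both genes all 24 h arrays lay below all 0 h arrays. Lbx1 and Eya1 had 0.42 and -0.05 at 24 h (adjusted p = 0.18 and 0.94). At 48 h Eya1 had 146.2, 151.3 and 158.8, against 112.7, 141.0 and 83.7 at 0 h, and was called in neither fit. The median of the list was -0.05 at 24 h and 0.06 at 48 h, against -0.05 and -0.03 over all genes tested.

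Of 18 cofactors 17 were on the chips and all 17 tested. At 24 h 2 were called higher and 0 lower, beside 1.58% and 0.94% of all tested genes, and at 48 h 1 higher and 0 lower, beside 1.29% and 0.747%. The medians were -0.06 and -0.05, close to the -0.05 and -0.03 over all genes tested. The blocked fit called 4 higher and 2 lower at 24 h, beside 4.94% and 5.58%, and 1 higher and 2 lower at 48 h, beside 3.79% and 4.45%. Mef2c, a MEF2 factor, had 4668.6, 5170.0 and 2998.9 at 24 h and 5520.5, 5978.3 and 2924.6 at 48 h, against 965.7, 811.0 and 1667.7 at 0 h. The 24 h and 48 h arrays all lay above those at 0 h, with log2 differences of 1.90 (SE 0.30, adjusted p = 0.0054, limma) and 2.04 (adjusted p = 0.0031). Mef2d had 2131.9, 2208.1 and 1375.3 at 24 h, against 997.3, 943.3 and 940.5 at 0 h (0.94, adjusted p = 0.017), and 0.27 at 48 h (adjusted p = 0.55). Smarcb1, a subunit of the SWI/SNF remodelling complex, and Cdon, a surface receptor of myoblasts, had -0.47 and -0.85 at 24 h (adjusted p = 0.24 and 0.24, and 0.036 and 0.042 in the blocked fit).

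Of 28 genes known as direct targets of the factors all 28 were on the chips and 27 tested. At 24 h 8 were higher and 0 lower, beside the 1.58% and 0.94% of all genes given above, and at 48 h 8 higher and 0 lower, beside 1.29% and 0.747%. The median log2 difference was 0.37 at 12 h, 0.45 at 24 h and 0.19 at 48 h, against -0.01, -0.05 and -0.03 over all genes tested. The blocked fit called 12 higher and 1 lower at 24 h, beside 4.94% and 5.58%, and 10 higher and 1 lower at 48 h, beside 3.79% and 4.45%. The lower gene at both hours was Dll1, a Notch ligand (blocked log2 differences of -0.72 and -1.59, with adjusted p = 0.0034 and 7.44e-06), named after its values were seen.

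Myh3, embryonic myosin heavy chain, had 9986.4, 10187.1 and 9196.6 at 24 h, against 3623.5, 3366.6 and 5236.1 at 0 h (log2 difference 1.28, SE 0.20, adjusted p = 0.0051, limma). Tnnc2, fast troponin C, had 7359.9, 7183.4 and 7976.4 at 24 h, against 1597.3, 1564.6 and 3446.9 at 0 h (1.86, SE 0.36, adjusted p = 0.015). In both, the 24 h arrays lay above all 0 h arrays, and replicate 3 was the highest of the 0 h arrays. Cav3, the muscle caveolin, and Mybph, a myosin-binding protein, rose by log2 differences of 1.75 and 1.5 at 24 h (adjusted p of 0.015 and 0.016) and 1.80 and 1.36 at 48 h (adjusted p of 0.017 and 0.031).

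The rise at 48 h differed in size between the replicate numbers. Mybph had 11720.8, 9693.2 and 5249.2 in replicates 1, 2 and 3 at 48 h, against 2621.9, 2787.5 and 4789.7 at 0 h. Myh3 had 10662.0, 10251.4 and 5868.6 at 48 h, against 3623.5, 3366.6 and 5236.1 at 0 h. Tnnc2 had 9525.0, 8286.4 and 5967.7 at 48 h, against 1597.3, 1564.6 and 3446.9 at 0 h. Cav3 had 3076.2, 2609.6 and 1432.7 at 48 h, against 498.2, 605.3 and 812.1 at 0 h. In replicate 3 Mybph and Myh3 stood only slightly above their 0 h value. Tnnc2 and Cav3 rose more clearly there, though less than in replicates 1 and 2. This difference between the numbers was not tested. Over all hours, 2 of the 27 targets were higher and 12 lower in replicate 3 than in replicates 1 and 2, beside 14.6% and 15.1% of all tested genes. Markers of other cells or states moved with the hours too. In replicates 1 and 2 the sums of the 5 proliferation markers ranged from 1889.4 to 1948.7 at 24 h and 4032.9 to 4217.3 at 48 h, against 4125.3 to 4574.2 at 0 h. In replicate 3 they were 6907.9 at 24 h and 7272.2 at 48 h, against 8180.2 at 0 h. The blocked fit called 4 of these 5 lower at 24 h and 0 at 48 h, and without the block 0 were called at either hour. Sums of the 5 pericyte and smooth muscle markers in replicates 1 and 2 ranged from 1485.1 to 1570.9 at 24 h and 1238.7 to 1348.5 at 48 h, against 3710.8 to 3809.7 at 0 h. In replicate 3 they were 804.0 at 24 h and 724.3 at 48 h, against 1060.4 at 0 h. Of the 3 tested, 2 were called lower at each of these hours in the blocked fit and 0 without it. The 1 fibroblast marker tested, Col3a1, was called lower at 24 and 48 h in replicates 1 and 2 alone and in neither of the other fits. Sums of the 6 fibroblast markers in replicates 1 and 2 ranged from 2245.8 to 2383.4 at 24 h and 2395.6 to 2652.2 at 48 h, against 3753.2 to 3793.4 at 0 h. In replicate 3 these sums went the other way, with 4433.0 at 24 h and 3931.6 at 48 h, against 3283.2 at 0 h. The part of these markers in the differences of the 4 factors and their targets was not tested.

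**Figure D4:**
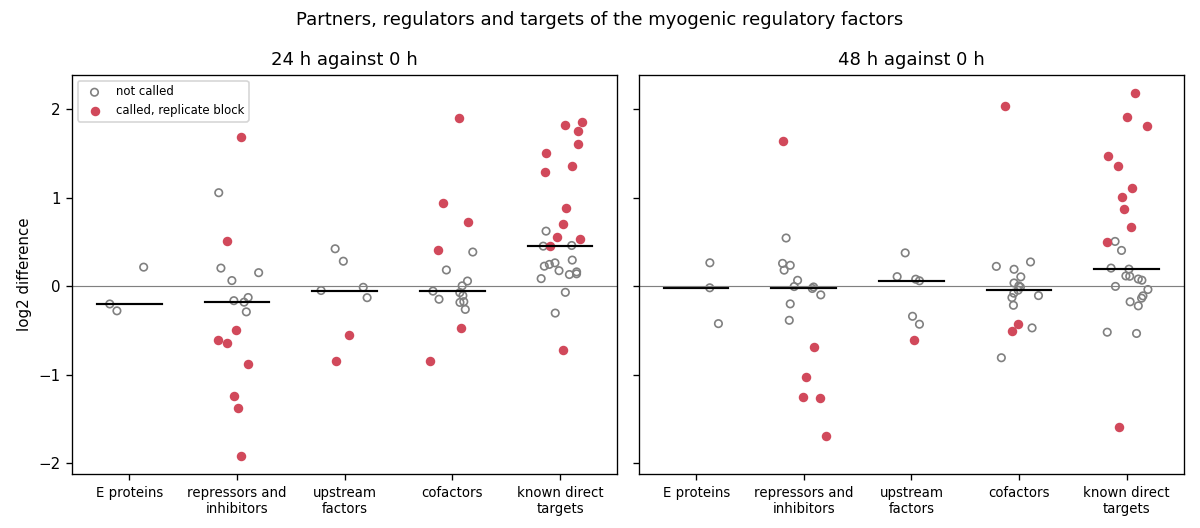
Log2 difference (vertical axis) of each tested gene of the 5 lists at 24 h (left) and 48 h (right) against 0 h, with filled points for genes called in the blocked fit, open points for those not called, and a black line at each list's median. Among direct targets 12 and 10 points above 0 are filled, with medians of 0.45 and 0.19, while Id3 lies lowest among the repressors, at -1.92 and -1.69.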

How the data were processed

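Deposited values were linear intensity per probe set, 1 column per array, with replicates not pooled. The software that summarised them is not given in the sources used here. Per the labels, the manufacturer's standard protocol was used. The deposited intensities had a 2% trimmed mean of 500.1 to 500.2 on every array, so arrays had been scaled as a whole, and total RNA per cell leaves no trace. Probe sets were named through GEO's platform annotation, with RefSeq symbols.

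Intensities became log2(intensity + pseudocount), with pseudocounts of 29 (A) and 54 (B), the 20th percentiles, so changes of dim genes are understated. The upper 60% of probe sets by mean was tested (13575 on A). Each chip was fitted in limma 3.58.1 (R 4.3.3, lmFit, eBayes with trend) over its 15 arrays with hour as factor, two-sided, with Benjamini-Hochberg adjustment over the chip and comparison, and called at an adjusted p under 0.05. With 3 arrays per hour, which limits the precision, an exact permutation test cannot go below 0.1. Only the A chip fit without the block, for 48 h against 0 h, was tried on simulated data, which held no difference between the replicate numbers. The other fits were not tried in this way. A comparison against 0 h shares its 0 h arrays with every other.

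The replicate numbers come from the titles. Deviations of same-numbered A arrays from their hour means correlated at 0.105 to 0.726 in all pairs, and the numbers were taken to pair the A arrays. Replicate 3 standing apart can by itself make these correlations positive, because replicates 1 and 2 then deviate together in the other direction. They therefore cannot show that replicates 1 and 2 are paired across the hours. The blocked value stands beside each result whose call it changes. Members, lists and comparisons were chosen with earlier results of these data known. Of each list, up to 4 genes with the smallest adjusted p against 0 h are named, and for likeness the 5 genes with the highest r. Scaling was also tried as median centring or quantile normalization, and the pseudocount at 1 and at 0.5 and 4 times its value. Further alternatives were testing all probe sets or the upper 40%, the replicate block, a term for replicate 3, replicates 1 and 2 alone, eBayes without trend, only the hours compared, and each array left out. Leaving out arrays and rescaling within the blocked fit were chosen after seeing the data.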

Additional observations from a re-analysis of the deposited data

How the results depend on the processing

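Apart from leaving out arrays, 371 of 394 checks kept direction and side of the threshold, 4 lost a call, 15 gained one and 4 changed sign. Quantile normalization turned the 4 h against 0 h difference of Myod1 to -0.016 and of Myog to -0.15, and that of Myod1 at 12 h to -0.030; in replicates 1 and 2 alone the last was -0.11. None of these was called. At 24 h against 0 h, 0 members were called under quantile normalization, with no filter, in the upper 40% (where Myf5 and Myf6 were not tested) and with only the hours compared. At 48 h against 0 h, 2 were called with the replicate block, with a term for replicate 3 and in replicates 1 and 2 alone. From 24 to 48 h, 1 was called with the block and with that term. The F test called 0 with no filter and in the upper 40%, 4 with the block or that term, and 2 in replicates 1 and 2 alone. The block changed no other call of a member.

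Leaving out each array in turn, 507 of 540 checks were kept and 18 changed sign. Called members ran from 0 to 1 at 24 h and at 48 h against 0 h and in the F test. Log2 differences of Myod1 ran from -0.080 to 0.27 at 4 h and -0.17 to 0.19 at 12 h against 0 h. Those of Myf6 ran from -0.48 to 0.22 at 12 h, -0.24 to 0.52 at 24 h and -0.038 to 0.80 at 48 h against 0 h. For Myf6 they were -0.075 to 0.90 from 4 to 12 h, -0.053 to 0.60 from 12 to 24 h and -0.16 to 0.64 from 24 to 48 h. Those of Myf5 were -0.039 to 0.59 from 24 to 48 h and -0.27 to 0.089 for replicate 3 against the other numbers. In these fits without the block, leaving out a replicate 3 array raised the mean of its hour for Myf6. Replicate 3 lay below the mean of replicates 1 and 2 there, with log2 differences of -1.85 (4 h) to -0.90 (12 h). Any further cause of these moves was not tested. Myf6 ran from 11.9 to 253.1, around the A array medians of 154.7 to 183.4, and Myf5 at 24 h lay below those medians, at 96.4 to 148.0. The Myf5 call at 24 h rests on its 0 h and 24 h arrays of replicates 1 and 2.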
